A study of Sus scrofa with 16 samples.

Results

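The nuclear genes of the mitochondrial respiratory chain and ATP synthase were read in pigs fed corn starch (CS) or raw potato starch (RPS). The members were the probes whose gene name, as written in the array files, starts with the letters of the subunit families of complex I (NDUFA, NDUFB, NDUFC, NDUFS, NDUFV), complex II (SDHA to SDHD), complex III (UQCR), complex IV (COX4 to COX8) or ATP synthase (ATP5). This gave 103 of 43603 probes and 29 genes, and each gene was read at its probe with the highest mean over the 16 arrays. The rule picked genes by name and used no measured value for that, but it was drawn up with earlier results of these data known. No probe carried a name starting with NDUFV, COX4 or COX5 in capitals, and 3 probes named Cox5b were missed by the capitals and are given beside the results.

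All animals were barrows (castrated males), Duroc × Landrace × Large White pigs of 170 d of age. Both diets were built on corn and soybean. They held 230 g/kg purified starch in the growing phase and 280 g/kg in the finishing phase, each of 50 days, as CS in the controls and as RPS in the treated group. Feed was unrestricted during the trial and was withheld before slaughter. Total RNA of liver and of colonic mucosa was hybridised to one-colour Agilent porcine arrays, with 4 arrays for each diet in each tissue. The colonic mucosa was scraped from the luminal surface, and both tissues hold several cell types, so that fewer cells of a type and less RNA per cell cannot be told apart. Between 61.1% and 72.2% of the probes on an array were well above background. In colon these shares were 68.8% to 72.2% with CS and 64.9% to 68.1% with RPS. The median signal of a colon array before normalization was 56.3 to 70.8 with CS and 34.2 to 42.5 with RPS. These ranges did not overlap, so the signal level of an array and diet cannot be told apart in colon. The tissue labels were borne out by markers: all 13 hepatocyte genes on the array were higher in liver and 11 of 13 epithelial genes were higher in colon. The 4 arrays of each group lay on a slide of their own, so slide and group cannot be told apart in any comparison.

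The respiratory chain sits in the inner mitochondrial membrane. Complex I takes electrons from NADH and complex II takes them from succinate, complex III passes them to cytochrome c, and complex IV, cytochrome c oxidase, hands them to oxygen. Protons are moved across the membrane on the way, and ATP synthase uses their return to make ATP. Colonocytes are known to burn butyrate made by gut bacteria from starch, and the liver is rich in mitochondria. Complex IV has subunits with tissue-specific isoforms, of which COX7A1 is known as the heart and muscle form and COX7A2 as the widely expressed form.

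The probes behind the results were 60 bases long, and stretches of them are printed to show which transcript regions were read. The motif AATAAA, the usual polyadenylation signal near the end of a transcript, is set in capitals where it occurs. On the strand as printed it was found in 12 of the 29 chosen probes (41.4%), in 14 of the 74 other probes of the members (18.9%) and in 9.6% of all probes. The reverse complement, TTTATT, was in none of the chosen probes, in 5 of the 74 others and in 4.17% of all probes. The first set holds 30 bases each of the 4 isoform probes that differed most clearly in direction between the tissues:
COX7A1: gtctgcaggacctcaacaagcatcAATAAA
COX7A2: gttccattcagctctctgtggaccagtaat
NDUFA4: taaagctgcttagaatgaaggtcttccaga
NDUFA4L2: tgtcccccgggatcaaacagaagcagccgt
The longest run of bases shared by any COX7A1 probe and any COX7A2 probe was 7, and by any NDUFA4 and NDUFA4L2 probe 8. Across all pairs of probes from different members it was 11. The second set shows probes of 1 gene at different places, 30 bases where the end of a transcript may be read and all 60 where an open frame ran through the whole probe:
ATP5A1, chosen: gcagatgtacagtgactgccttaaAATAAA
ATP5A1, open frame: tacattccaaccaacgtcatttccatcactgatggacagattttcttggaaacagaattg
ATP5B, chosen: catgagagccttgattgaagacattgtatt
ATP5B, open frame: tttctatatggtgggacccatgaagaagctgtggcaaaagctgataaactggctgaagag
SDHB, chosen: gactgtaaccagctcaactgaacgttaatt
SDHB, open frame: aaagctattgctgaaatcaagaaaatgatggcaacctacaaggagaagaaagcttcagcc
Probes of 1 gene are not independent of each other, since 36 of the 259 same-gene pairs shared a run of 30 bases or more.

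The first comparison was colonic mucosa against liver. After quantile normalization most respiratory chain genes had a higher signal in colon. Of the 29 members, 21 were higher in colon and 3 were higher in liver at an adjusted p under 0.05 (limma, Benjamini-Hochberg over all probes), while 52.9% of all probes were called by the same rule, 28.9% higher in colon and 24% higher in liver. A fold above 2 in addition was found for 5 members in the colon direction and 2 in the liver direction, beside 15.9% and 13.4% of all probes. The median difference over the members was 0.50 on the log2 scale, beside 0.01 over all probes. The genes higher in liver were COX7A1, NDUFA4 and ATP5E. The 5 members that were not called were SDHA, SDHB, SDHD, NDUFAF3 and COX8H, and COX8H, a heart form of a complex IV subunit, was not well above background on any of the 16 arrays. In 18 members the 8 colon values did not overlap the 8 liver values, beside 26.8% of all probes.

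The excess in colon depended on the scaling of the arrays. When each array was scaled to the 75th percentile of its signals instead of being quantile normalized, 8 of 29 members were higher in colon and 6 were higher in liver, beside 28.7% and 32.1% of all probes, so that by count no excess in colon remained. The median over the members was then 0.037 and that over all probes -0.058. The 6 were COX7A1, NDUFA4, ATP5E, SDHA, SDHB and COX8H. The genes called in the same direction under quantile normalization, the 75th percentile, normexp background correction and the authors' own values numbered 8 higher in colon (NDUFAB1, NDUFS5, NDUFA4L2, COX6B, COX7A2, ATP5A1, ATP5B and ATP5G1) and 3 higher in liver (COX7A1, NDUFA4 and ATP5E). Under the 75th percentile 7 members turned their sign, NDUFB9, NDUFAF3, UQCR10, COX7C, ATP5G2, ATP5G3 and ATP5J2, and none of the 7 was called there.

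**Figure D1:**
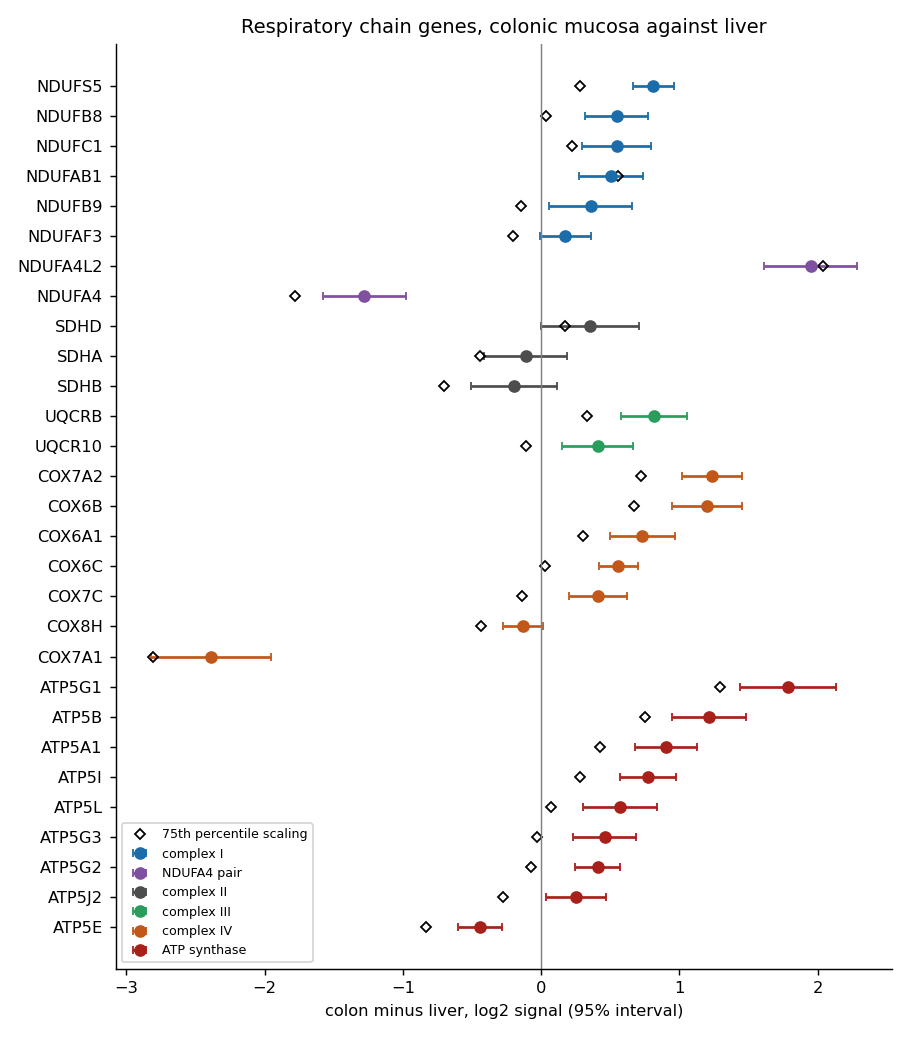
Colon minus liver for the 29 genes, on the log2 scale, ordered by complex. Filled points are quantile normalized differences with 95% intervals over 16 arrays, and open diamonds are the same differences after scaling to the 75th percentile. COX7A1, NDUFA4 and ATP5E lie on the liver side under both, and the diamonds of most other genes lie closer to 0.

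Complex IV held the largest difference among the members. COX7A1 ranged from 11.87 to 13.45 in colon with a median of 12.61 and from 14.56 to 15.22 in liver with a median of 14.96, on the log2 signal scale. All liver values were above all colon values. The difference was -2.39 ± 0.20 (SE, n = 8 against 8; limma adjusted p = 1.83e-07), or 5.23-fold, and its second probe gave -2.41. Its paralog COX7A2 went the other way. COX7A2 ranged from 15.42 to 16.07 in colon and from 14.43 to 14.70 in liver, with medians of 15.83 and 14.61. It was higher in colon by 1.24 ± 0.10 (limma adjusted p = 1.29e-07), and all 5 of its probes were called higher in colon, from 1.15 to 1.24. The gene named COX6B, whose product bridges the complex IV dimer, was higher in colon by 1.20 ± 0.12 (limma adjusted p = 7.86e-07). COX6A1, the form of subunit VIa found outside muscle, was higher by 0.73 ± 0.11 (limma adjusted p = 4.82e-05), but its difference was 0.30 (limma adjusted p = 0.0749) under the 75th percentile. Of its 6 probes 5 were called higher in colon after quantile normalization. The remaining small subunits COX6C and COX7C were higher in colon by 0.56 and 0.41 after quantile normalization. Under the 75th percentile they were at 0.026 and -0.14 and were not called. The probes named Cox5b, another nuclear subunit of complex IV, were higher in colon by 0.88 to 0.91 (limma adjusted p at most 5.15e-05 for the 3). These values are quantile normalized, and none is given for Cox5b under the 75th percentile.

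NDUFA4 and NDUFA4L2 formed the other pair of opposite direction. NDUFA4 was first purified with complex I and is now known to bind complex IV, and NDUFA4L2 is its hypoxia-inducible paralog. NDUFA4 ranged from 13.91 to 15.09 in colon with a median of 14.31 and from 15.53 to 15.80 in liver with a median of 15.63, without overlap. It was lower in colon by a difference of -1.28 ± 0.14 (limma adjusted p = 2.49e-06), and all 6 of its probes were called lower, from -1.37 to -1.24. NDUFA4L2 had a median of 7.40 in colon and 5.40 in liver. Its lowest colon value, 6.87, was above its highest liver value, 6.20, and it was higher in colon by 1.95 ± 0.16 (limma adjusted p = 9.83e-08). Its second probe was well above background on 5 colon arrays and on no liver array, and no fold is given for it. Under normexp background correction the NDUFA4L2 difference was 0.93.

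**Figure D2:**
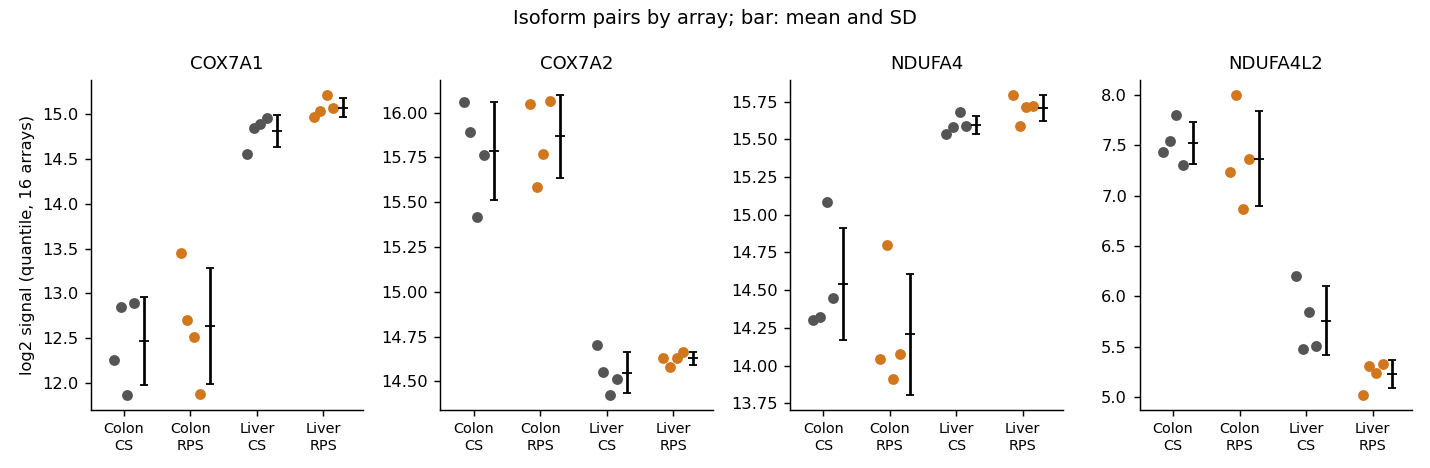
Log2 signal of COX7A1, COX7A2, NDUFA4 and NDUFA4L2 on each of the 16 arrays, quantile normalized together, by tissue and diet (4 arrays each), with the mean and SD beside the points. In each gene the 8 colon arrays are apart from the 8 liver arrays, with COX7A1 and NDUFA4 high in liver and COX7A2 and NDUFA4L2 high in colon.

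ATP synthase had 8 of 9 members higher in colon and 1 higher in liver after quantile normalization, beside 28.9% and 24% of all probes. Under the 75th percentile ATP5A1, ATP5B and ATP5G1 kept the call in colon and ATP5E the call in liver, and the others were not called. The c subunit, which forms the rotating ring in the membrane, is made from the ATP5G genes, whose mature products are identical. ATP5G1 ranged from 15.48 to 16.74 in colon with a median of 16.18 and from 14.04 to 14.70 in liver with a median of 14.29, without overlap, and the difference was 1.78 ± 0.16 (limma adjusted p = 3.72e-07). ATP5G2 and ATP5G3 were higher in colon by 0.41 ± 0.08 and 0.46 ± 0.11, and were at -0.074 and -0.032 under the 75th percentile. The larger colon difference of ATP5G1 over ATP5G2 and ATP5G3 was not itself tested. The catalytic head showed both directions. ATP5A1 and ATP5B, which form its catalytic ring, were higher in colon by 0.90 ± 0.10 and 1.21 ± 0.12 (limma adjusted p = 4.04e-06 and 1.35e-06). All 14 ATP5A1 probes and all 9 ATP5B probes were called higher in colon. The open-frame probes printed above gave 0.88 for ATP5A1 and 1.29 for ATP5B. ATP5E, the small epsilon subunit of the central stalk, ranged from 16.32 to 16.71 in colon with a median of 16.50 and from 16.79 to 17.14 in liver with a median of 16.94. It was lower in colon by a difference of -0.44 ± 0.07 (limma adjusted p = 1.31e-04), and 1 of its 2 probes was called. The membrane subunits ATP5I, ATP5L and ATP5J2 were higher in colon by 0.78, 0.57 and 0.25. Both ATP5I probes were called, and 1 of 2 probes for each of ATP5L and ATP5J2.

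In complexes I to III no member differed by more than 2-fold. The accessory subunits of complex I were NDUFS5, NDUFB8, NDUFC1, NDUFAB1 and NDUFB9, all called higher in colon by 0.36 to 0.81 after quantile normalization. NDUFS5 had the narrowest spread of these, from 15.04 to 15.48 in colon and from 14.30 to 14.44 in liver, and a difference of 0.81 ± 0.07 (limma adjusted p = 1.94e-07). Of the 3 NDUFB9 probes 2 were called. Under the 75th percentile NDUFS5 and NDUFAB1 kept the call, and NDUFB8, NDUFC1 and NDUFB9 did not. NDUFAF3, an assembly factor, was not called after quantile normalization, at 0.18. Both complex III members were higher in colon, UQCRB by 0.82 ± 0.11 with all 7 probes called and UQCR10 by 0.41 ± 0.12. Neither was called under the 75th percentile, at 0.33 and -0.11. None of the 3 members of complex II, which is also succinate dehydrogenase of the citric acid cycle, was called at its chosen probe after quantile normalization. SDHA, the flavoprotein, was at -0.11 and SDHB, the iron-sulfur subunit, at -0.19, with 95% intervals of -0.42 to 0.19 and -0.50 to 0.11. Under the 75th percentile the same probes were called higher in liver, SDHA at -0.44 (limma adjusted p = 0.0333) and SDHB at -0.70 (limma adjusted p = 0.00337). The answer for SDHB also depended on the probe. Its 2 brightest probes, both printed above, gave -0.19 and -0.20, and the 6 dimmer ones gave -0.55 to -0.76 and were all called lower in colon. SDHA likewise had 2 of 4 probes called lower in colon, and SDHD, a membrane anchor, had none of 5 called.

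Other genes of the pathway were read by the same rule from lists drawn up by function. Of the 45 genes in 9 lists, 24 were higher in colon and 8 were higher in liver after quantile normalization, beside 28.9% and 24% of all probes. Under the 75th percentile 13 were higher in colon and 14 in liver. The 13 protein genes of mitochondrial DNA turned with the scaling, from 8 higher in colon and 1 in liver (median 0.22) to 0 and 5 (median -0.26). ND6 was the one higher in liver under quantile normalization, and it was higher there under both. Cytochrome c (CYCS) was higher in colon by 2.35 ± 0.25, and by 2.00 under the 75th percentile. The 5 carriers and pores on the array (SLC25A3, SLC25A6, VDAC1, VDAC2 and VDAC3) were higher in colon by 0.92 to 1.74, and all but VDAC1 were called under the 75th percentile. The citric acid cycle had 4 of 9 genes higher in colon under both, and 1 and 2 higher in liver. ETFA and ETFB, which pass electrons from fatty acid oxidation to the chain, were lower in colon by differences of -1.38 and -1.60, and of -1.69 and -2.08 under the 75th percentile. The regulators of mitochondrial biogenesis had 1 of 4, TFAM, called higher in liver under both. UCP2, an uncoupling protein, was higher in colon by 3.14 ± 0.40 and by 2.97 under the 75th percentile, and the probe named UCP3 was above background on 8 colon arrays and on only 2 liver arrays. The lists for assembly factors and for organelle mass had 3 of 6 and 1 of 3 genes higher in colon, and 1 and 2 higher in liver. Under the 75th percentile these were 2 and 0 in colon and 2 and 2 in liver.

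Among the 8 colon arrays many of the members, but not all, moved together across the diet groups. For the 28 members above background, each value was taken minus the gene's mean over the 8 colon arrays. The array medians were 0.14, 0.05, -0.35 and -0.06 for CS replicates 1 to 4 and 0.10, -0.21, -0.05 and 0.31 for RPS replicates 1 to 4. CS replicate 3 held the lowest value of 16 members and RPS replicate 4 the highest value of 19. No share over all probes is given for these counts. RPS replicate 4 also had the most outlier spots of the 16 arrays, 27. Its share of probes well above background, 64.9%, was the lowest of the colon arrays. In 14 of the 28 members, CS replicate 3 and RPS replicate 2 were the lowest arrays, beside 16.3% of all probes. These 2 arrays have the lowest medians above and were picked after the values were seen. A high count of members therefore follows in part by construction. The same 2 arrays were the highest for 2 of the 28 members, NDUFA4 and NDUFA4L2, beside 18% of all probes. NDUFC1, NDUFS5, ATP5G2 and ATP5L also had their highest CS value in CS replicate 3. The SD over the centred members on that array was 0.34. On the liver arrays the medians lay between -0.07 and 0.07. The SD within groups had a median over the members of 0.28 in colon and 0.12 in liver, beside 0.41 and 0.29 over all probes.

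Some of the cell type marker lists, but not all, moved with these arrays. The median of 12 epithelial genes, on the same centred scale, was -1.68 in CS replicate 3 and -0.86 in RPS replicate 2, and between 0.16 and 0.67 on the other colon arrays. The median of 3 B and plasma cell genes was 3.24 and 3.10 in those arrays and between -2.97 and 0.95 elsewhere. The median of 6 T cell genes was highest in CS replicate 3, at 1.04, and lowest in RPS replicate 4, at -1.16. In RPS replicate 2 it was 0.32, beside 0.28 in RPS replicate 1. The goblet list was also lowest, and the macrophage list highest, in CS replicate 3 and RPS replicate 2. The smooth muscle (0.07 and -0.49), fibroblast (-0.19 and -0.06) and endothelial (-0.27 and -0.11) lists did not set these 2 arrays apart. RPS replicate 4 was at 0.31 for the epithelial genes. The summed linear signal of the 13 epithelial genes on the array ran from 185897 to 738696 in CS and from 315067 to 878546 in RPS. For the 3 B and plasma cell genes it ran from 292 to 9540 in CS and from 125 to 8096 in RPS. For the 6 T cell genes it ran from 3836 to 10117 in CS and from 1971 to 6298 in RPS. All genes of these lists were well above background on at least some colon arrays. Their part in the members' values was not tested.

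**Figure D3:**
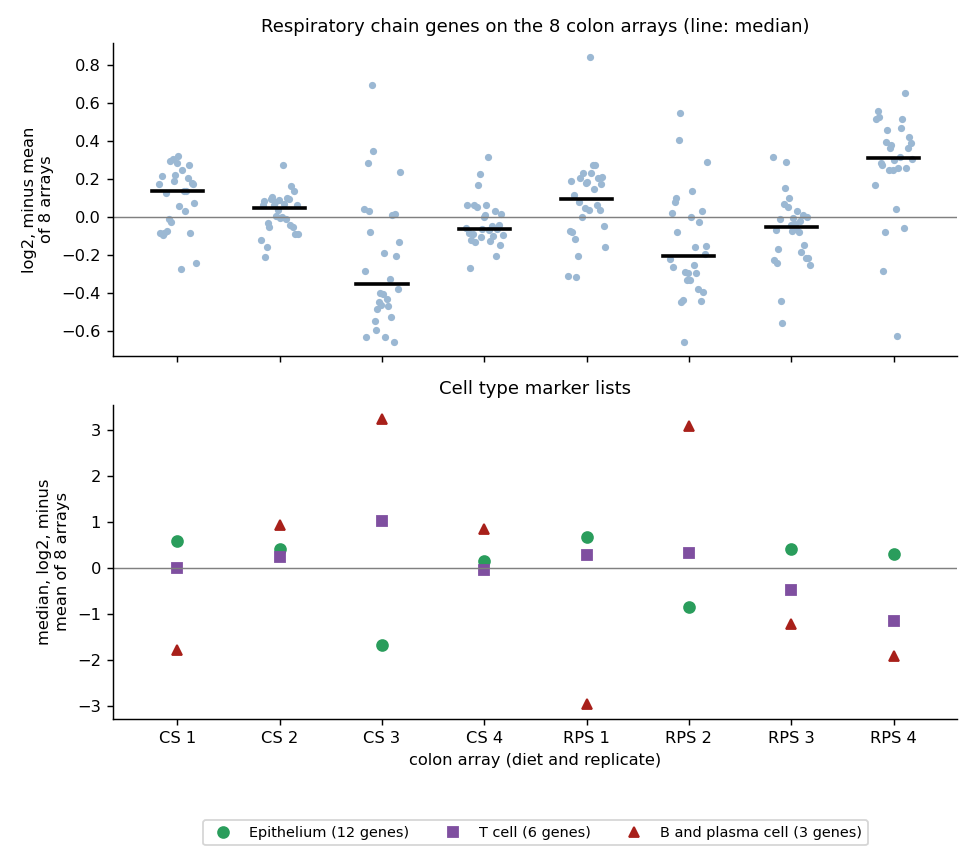
Upper panel, log2 signal of the 28 detected genes on each colon array minus the gene's mean over the 8 arrays, with the median as a line. Lower panel, the median of the epithelial, T cell and B cell marker lists on the same scale. CS 3 and RPS 2 have the lowest medians above, and below them the lowest epithelial and the highest B cell values.

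The second comparison asked what the RPS diet did to these genes in the colonic mucosa. No member passed the thresholds of the study, an unadjusted p under 0.05 with a fold above 1.5, which 2.94% of all probes passed. No member reached an unadjusted p under 0.05 in limma, against 5.42% of all probes, and the methods' t-test gave 1, COX8H. Adjusted p-values were 0.959 or higher. The median difference was 0.09, beside 0.01 over all probes, and 22 of 29 members were above 0, beside 52.3% of all probes. The median depended on the processing and on single arrays. Across the alternatives of processing its highest value was 0.24. Leaving out each array gave -0.01 (without RPS replicate 4) to 0.15 (without RPS replicate 3). Without both RPS replicate 4 and CS replicate 3, a fit added after seeing the data, it was -0.10. These arrays held the highest RPS and the lowest CS median of the members, so leaving them out lowers the difference by construction.

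For the detected members with the lowest p the groups overlapped. NDUFS5 was at 15.06, 14.98, 15.17 and 15.02 with CS and at 15.26, 15.24, 14.97 and 15.42 with RPS, a difference of 0.17 ± 0.12 (limma adjusted p = 0.982; exact two-sided permutation p = 0.200). The lowest value of all 8 was an RPS array. COX7C was at 15.53, 15.38, 14.93 and 15.27 with CS and at 15.67, 15.24, 15.43 and 15.71 with RPS, a difference of 0.23 ± 0.17 (exact permutation p = 0.229). CS replicate 3 held the lowest COX7C value and was the one CS array below all RPS arrays. NDUFA4 was at 14.25, 14.27, 15.02 and 14.39 with CS and at 14.01, 14.73, 13.88 and 14.04 with RPS, a difference of -0.32 ± 0.25 (exact permutation p = 0.314), and its highest values were CS replicate 3 and RPS replicate 2. ATP5I and ATP5E differed by 0.22 ± 0.18 and -0.10 ± 0.10. COX8H was the one member whose groups did not overlap, beside 6.5% of all probes, and all 8 of its values were not well above background. The isoforms COX6A1, COX7A1, COX7A2 and NDUFA4L2 differed by 0.05, 0.16, 0.09 and -0.15, and ATP5G1, ATP5G2 and ATP5G3 by 0.21, 0.09 and -0.04. The 95% interval lay within a 1.5-fold change on both sides in 16 of the 29 members, beside 28.4% of all probes, so a change of that size was not excluded for the other 13. The interval of COX7A1 was the widest, from -0.67 to 0.98.

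**Figure D4:**
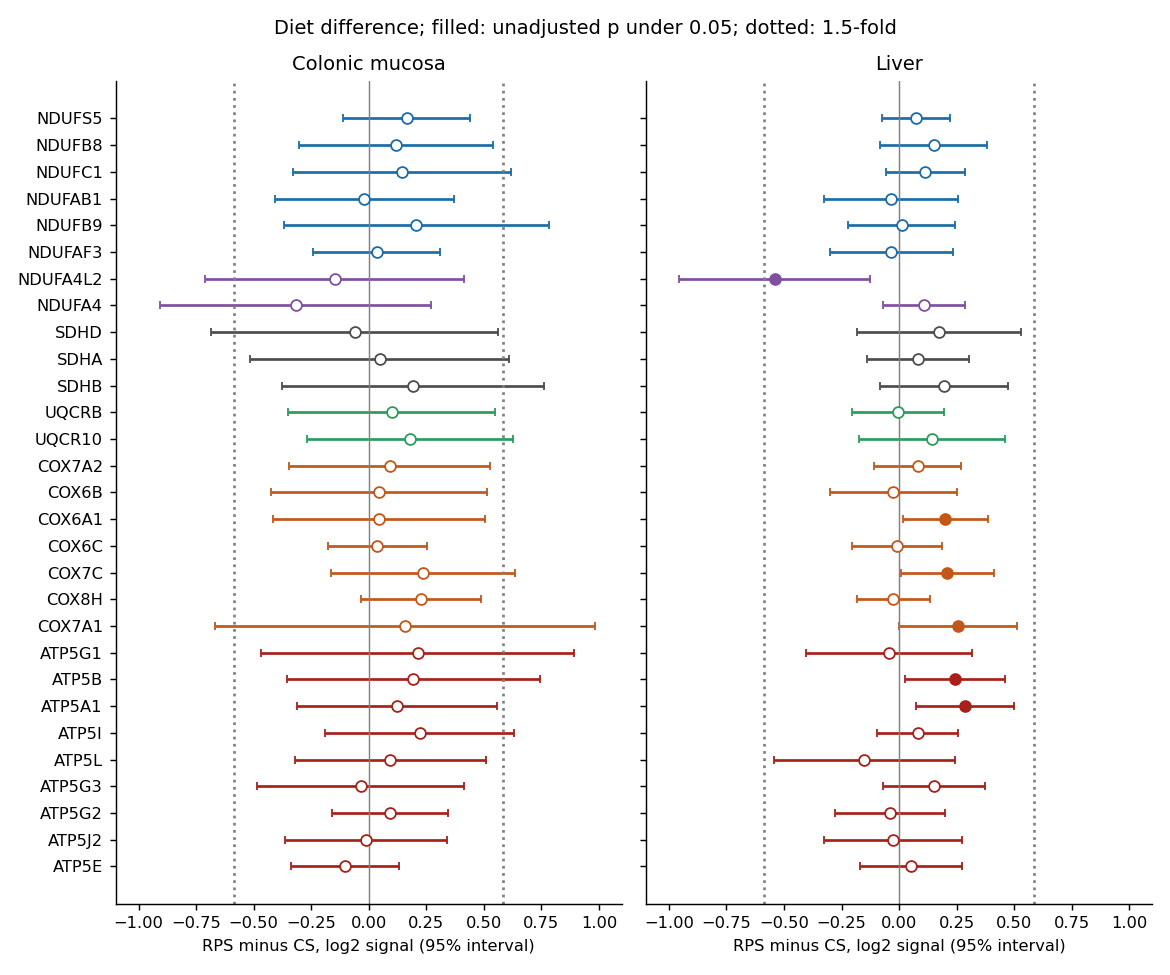
RPS minus CS for the 29 genes in colonic mucosa (left) and liver (right), log2 scale, with 95% intervals from 4 against 4 arrays. Filled points have an unadjusted p under 0.05 and dotted lines mark a 1.5-fold change. All points lie inside the dotted lines, the intervals are wider in colon, and the filled points are all in liver.

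The third comparison was the same diet contrast in liver. Again no member passed both thresholds, which 3.56% of all probes passed. With the p threshold alone, 5 members were higher with RPS (ATP5A1, ATP5B, COX6A1, COX7C and COX7A1) and 1 was lower (NDUFA4L2), where 7.59% of all probes passed, 4.05% higher and 3.54% lower. The median difference over the members was 0.08, and 18 of 29 were above 0, beside 49% of all probes. None held after adjustment, where the smallest adjusted p was 0.526 and 0.00229% of all probes passed. In 7 members the diet groups did not overlap, beside 4.44% of all probes. The 5 were 1 to 3 when any 1 array was left out, and 0 when all 16 arrays were fitted together. With the replicate number as a block, 1 was higher with RPS (ATP5A1) and 0 were lower. The labels do not tie these numbers to the replicates that the study used as blocks.

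ATP5A1, the alpha subunit of the catalytic head, was at 15.09, 15.05, 15.13 and 15.08 with CS and at 15.41, 15.26, 15.57 and 15.26 with RPS. The RPS values were all above the CS values. The difference was 0.29 ± 0.09, or 1.22-fold (limma p = 0.0156, adjusted p = 0.526; exact two-sided permutation p = 0.0286, the smallest that 4 against 4 arrays allow). All 14 ATP5A1 probes were higher with RPS, from 0.07 to 0.33, and 7 had an unadjusted p under 0.05. It was the one member higher with RPS that kept such a p in each fit that left out 1 array. ATP5B, the beta subunit that carries the catalytic sites, was at 14.83, 15.04, 15.09 and 14.83 with CS and at 15.13, 15.14, 15.19 and 15.29 with RPS. The groups did not overlap, and the difference was 0.24 ± 0.09 (limma p = 0.0334, adjusted p = 0.606; exact permutation p = 0.0286). All 9 ATP5B probes were higher with RPS, from 0.18 to 0.37, and 5 had an unadjusted p under 0.05. ATP5E, of the same head, differed by 0.05.

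COX7C, a small structural subunit of complex IV, was at 15.11, 14.90, 15.14 and 14.88 with CS and at 15.19, 15.21, 15.23 and 15.25 with RPS, without overlap. The difference was 0.21 ± 0.09 (limma p = 0.0435, adjusted p = 0.635; exact permutation p = 0.0286). Its other detected probes gave 0.12 and 0.13, without an unadjusted p under 0.05, and the mean of all its probes gave 0.10. COX6A1 differed by 0.20 ± 0.08 (limma p = 0.0371, adjusted p = 0.619; exact permutation p = 0.0571) with 1 CS array, at 16.15, above the lowest RPS array, at 16.14. COX7A1 was at 14.63, 14.91, 14.95 and 15.03 with CS and at 15.03, 15.10, 15.29 and 15.13 with RPS, a difference of 0.26 ± 0.11 (limma p = 0.0497, adjusted p = 0.658; exact permutation p = 0.0286). Its groups did not overlap but met at 15.03. COX7A2 differed by 0.08 ± 0.08 (exact permutation p = 0.229), and the pair's diet differences were not tested against each other. SDHB was higher with RPS by 0.20 ± 0.12 (exact permutation p = 0.143) at its chosen probe, and all 8 of its probes were higher, from 0.20 to 0.40, with 5 at an unadjusted p under 0.05. Cox5b was higher by 0.13 to 0.17.

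NDUFA4L2 was the member that was lower with RPS. It was at 5.95, 5.22, 5.59 and 5.25 with CS and at 4.76, 5.05, 4.98 and 5.06 with RPS, and all RPS values were below all CS values. The difference was -0.54 ± 0.18, or 1.46-fold (limma p = 0.0174, adjusted p = 0.536; exact two-sided permutation p = 0.0286). Without CS replicate 2 or CS replicate 4 it was -0.64 and -0.62 and passed both thresholds, and without CS replicate 1, the highest array, it was -0.39. It was -0.15 with normexp background correction, and its second probe, not well above background in liver, gave 0.11. NDUFA4 differed by 0.11 ± 0.08. The complex I subunits NDUFC1 and NDUFS5 had non-overlapping groups at differences of 0.11 and 0.07. The 95% intervals of 28 of the 29 members, all but NDUFA4L2, lay within a 1.5-fold change, beside 43.8% of all probes.

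**Figure D5:**
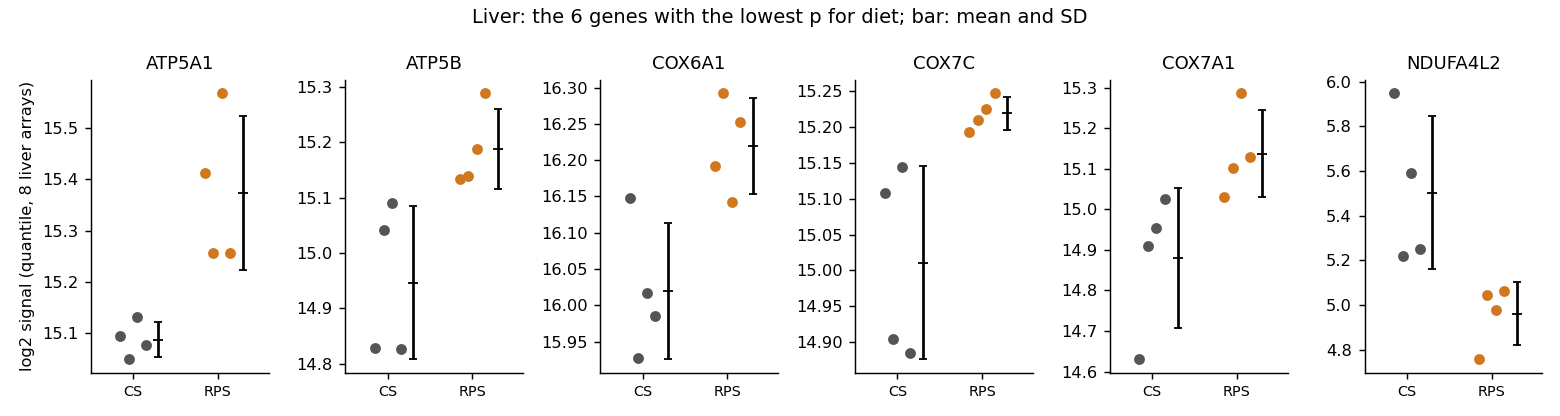
Log2 signal on each liver array for the 6 genes with the lowest p for diet, 4 CS and 4 RPS arrays, quantile normalized over the 8 liver arrays, with the mean and SD beside the points. The axes do not start at 0 and differ between genes. The groups overlap in COX6A1 alone, and NDUFA4L2 is the gene that is lower with RPS.

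Of the 45 other pathway genes, 1 passed both diet thresholds in colon and none in liver, beside 2.94% and 3.56% of all probes. In colon ND6, a complex I gene of mitochondrial DNA, was higher with RPS by 0.68 (limma adjusted p = 0.868), and ND4L, another, passed the p threshold alone at 0.47 (limma adjusted p = 0.898). In liver 4 genes passed the p threshold alone, as did 7.59% of all probes. They were the citrate synthase gene CS at 0.35, SUCLG2 of the citric acid cycle at 0.31 and the chaperonin genes HSPD1 and HSPE1 at 0.58 and 0.47, with limma adjusted p of 0.440 or higher.

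The last comparison asked whether the diet effect differed between the tissues. No member was called, against 0.00229% of all probes at an adjusted p under 0.05. None had an unadjusted p under 0.05, against 4.72% of all probes, or 3.76% with a fold above 1.5 besides, and the smallest adjusted p was 0.999. Among detected members NDUFA4 had the largest difference of effects, -0.44 ± 0.28, from -0.33 in colon and 0.11 in liver. Without colon RPS replicate 2 it was -0.64 and had an unadjusted p under 0.05. The next by p were NDUFA4L2 at 0.38 ± 0.31, ATP5E at -0.16 ± 0.15, ATP5L at 0.23 ± 0.25 and ATP5G3 at -0.19 ± 0.21. The 95% interval for NDUFA4 ran from -1.04 to 0.16, so these arrays do not show that the tissues respond alike.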

How the data were processed

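Colonic mucosa and liver were measured on 16 one-colour arrays (4 per diet and tissue). Per the file headers, the authors used Agilent Feature Extraction 10.7, and the intensity values of each spot were background-subtracted and detrended but not normalized between arrays. The deposited series table holds log2 values that the authors quantile normalized. The genome build of the probes is not given in the sources used here, so no positions are printed. Control spots were left out and outlier spots were set to missing. After log2 transformation the arrays were brought to common quantiles, 8 at a time for diet within a tissue and all 16 for tissue and for the difference of diet effects, and repeat spots were averaged per probe. Differences were fitted with limma 3.58.1 in R 4.3.3, without a signal filter, with the Benjamini-Hochberg adjustment taken across all 43603 probes. No probe's level was set against another's.

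The members and gene lists were chosen with earlier results of these data known. Named genes were, for diet, members past both thresholds, filled to 6 by p. For tissue they were the 8 largest called differences in each direction. For the difference of diet effects they were the 6 lowest p. The isoform pairs and any gene whose probes disagreed in the sign of a called difference were always named. NDUFAF3, the SDH genes, COX6C, COX7C, the membrane subunits and the other lists' genes were named in addition after their values were seen. The methods call the 4 arrays of a group biological replicates, and their number limits the precision. The fits were tested on simulated data. Alternatives were the scaling, the background, the authors' values, outliers, dim probes, the variance trend, the methods' t-test, a joint fit, a replicate block, other thresholds, all probes of a gene, structural subunits, single diets and leaving out arrays. The rule in any letter case, the fit without 2 colon arrays and the pathway lists under the 75th percentile were added after seeing the data. So was the count of members lowest or highest in colon CS replicate 3 and RPS replicate 2.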

Additional observations from a re-analysis of the deposited data

Results flagged for a closer look

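In 76 groups of 4 arrays (18 named genes and the median over the members, in each group), 3 held an array whose gap to its neighbour, as a share of the group's range, was above Dixon's 95% critical value. Chance gives about 1 in 20. In ATP5G1 with CS in liver the share was 0.862, with replicate 2 at 14.77 and the others at 14.22 to 14.30. In ATP5G2 with RPS in liver it was 0.864, with replicate 3 at 15.85 and the others at 15.52 to 15.57. In ATP5I with RPS in liver it was 0.874, with replicate 4 at 15.14 and the others at 15.28 to 15.30. No named gene had diet groups apart in opposite directions in colon and liver.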

How the results depend on the processing

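For colon minus liver, 24 members were called. Scaling to the 75th percentile gave 14 (8 higher in colon, 6 higher in liver, median 0.037, with ATP5G2 at -0.074 and ATP5G3 at -0.032); the cause was not tested. A fold above 1.5 besides the adjusted p gave 12 (10 higher in colon), and a fold above 2 gave 7 (5 higher in colon), by construction. The same scaling gave 13 pathway genes higher in colon and 14 higher in liver in place of 24 and 8. Leaving out each array gave 22 to 25 called, 19 to 22 higher in colon and 3 higher in liver in every fit.

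For diet in colon, no member passed both thresholds under any alternative run. Members with an unadjusted p under 0.05 numbered 1 (COX8H) under the 75th percentile, the variance trend and the methods' t-test, and 0 to 1 when an array was left out. Signs turned in uncalled genes: ATP5E to 0.11 and ATP5G3 to 0.14 (75th percentile), COX8H to -6.4e-05 and COX6A1 to -0.020 (normexp), ATP5E to 0.034 (mean of all probes of a gene), and COX6A1 to -0.18, COX7A2 to -0.11 and ATP5G1 to -0.15 (without 2 colon arrays). Leaving out each array gave -0.16 to 0.089 for ATP5G3, -0.10 to 0.15 for COX6A1, -0.10 to 0.39 for COX7A1, -0.041 to 0.19 for COX7A2 and -0.36 to 0.014 for NDUFA4L2.

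For diet in liver, the 5 members higher with RPS at an unadjusted p under 0.05 became 2 under the 75th percentile (median 0.12, ATP5G1 at 0.015), 3 with the authors' values, 1 with probes well above background only, 0 with 16 arrays in 1 fit and 1 to 3 when an array was left out. The 1 lower member became 0 with the mean of all probes. Members past both thresholds numbered 0 to 1 when an array was left out, and ATP5G1 ranged from -0.10 to 0.082.

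For the difference of diet effects, 1 member (COX8H) had an unadjusted p under 0.05 under the 75th percentile, and 0 to 1 when an array was left out. Signs turned for ATP5E to 0.053 and COX6A1 to 0.048 (75th percentile), COX7A1 to 0.0015 (normexp), and COX8H to -0.45, NDUFA4L2 to -0.031 and ATP5E to 0.044 (mean of all probes). Leaving out each array gave -0.36 to 0.17 for COX7A1 and -0.12 to 0.10 for COX7A2.

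The labels do not say whether a shared replicate number marks 1 pig, and the samples were not treated as pairs: deviations of same-numbered colon and liver arrays correlated at 0.16 to 0.33 with CS and at -0.08 to 0.07 with RPS, and those of CS and RPS arrays at -0.51 to 0.55 in colon. With the replicate block, 1 member was higher and 0 were lower with RPS in liver at an unadjusted p under 0.05, 24 members were called between the tissues and no other call changed. Matching the rule in any letter case added Cox5b and gave 25 called between the tissues and 6 higher with RPS in liver.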
